A study of Mus musculus with 24 samples.

Results

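Tuft cells are a rare chemosensory cell type of the intestinal epithelium. They sense luminal signals through a pathway they share with taste receptor cells, in which receptors act through G proteins, phospholipase C and released calcium on the cation channel Trpm5. They are also known for making eicosanoids and for releasing interleukin 25, through which they alert immune cells in the mouse intestine. The 6 tuft cell genes described here are Trpm5, the cation channel at the end of that pathway; Avil, which encodes advillin, an actin-binding protein of the tuft; Gfi1b, a transcriptional repressor known in tuft cells and blood progenitors; Ptgs1, cyclooxygenase 1 of prostaglandin synthesis; Alox5ap, which encodes the activating protein of 5-lipoxygenase in leukotriene synthesis; and Kctd12, an auxiliary subunit of GABA type B receptors that single-cell maps of the mouse intestine list among tuft cell genes. All probes with these gene symbols were taken, which gave 9 probes among the 25697 probes and 18138 gene symbols of the array: 3 for Ptgs1, 2 for Trpm5 and 1 for each of the others. In the array's own annotation Kctd12 lies on chromosome 14, Trpm5 on chromosome 7, Avil on chromosome 10, Alox5ap on chromosome 5, and Ptgs1 and Gfi1b on chromosome 2.

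The samples were small intestinal organoids, which are epithelial cultures grown from crypts, taken from C57BL/6 mice and kept with EGF, Noggin and R-spondin. Organoids given 6 Gy of gamma radiation 3 days after reseeding were compared with non-irradiated controls at 24, 48 and 96 h, with 4 arrays in each of the 6 groups. No label ties a sample to its own culture or animal, and the p-values therefore reflect only how far these samples vary, possibly for technical reasons. The organoids are epithelial cultures of mixed cell types. For a gene of a rare cell type in such a sample, fewer cells of the type and less RNA per cell cannot be told apart.

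Total RNA was measured on Illumina bead arrays, and a probe was called detected on an array where its deposited detection p was under 0.05. Between 9738 and 14751 probes were detected per array, with 9738 to 12941, 12890 to 14751 and 10971 to 13231 in organoids irradiated 24, 48 and 96 h before, against 12535 to 13551, 14014 to 14120 and 11727 to 13831 in their controls. Arrays of a group correlated at 0.948 to 0.993. The 8 arrays of a time shared 1 of 3 chips, with the controls in the first 4 positions and the irradiated samples in the other 4, so time and chip cannot be told apart, nor can irradiation and position within a chip. Epithelial markers were plain, with 6 of the 6 listed genes that have a probe (Cdh1, Krt8, Krt19, Vil1, Cdx1 and Cdx2) passing the detection filter. Of the defining tuft cell markers Dclk1, Pou2f3, Trpm5, Avil, Gfi1b and Il25, 3 of 6 were detected on any array and 0 passed the filter of detection on at least 4 arrays. By these markers the name of the gene group rests on few detected probes, and Kctd12 and Alox5ap, the members that passed the filter, are also expressed by other cell types.

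Detection split the 6 genes sharply. Kctd12 was detected on 24 of 24 arrays and Alox5ap on 20 of 24. The Avil probe was detected on 3 arrays, the Trpm5 probes on 1 and 3, the Ptgs1 probes on 1, 1 and 2, and the Gfi1b probe on 0 of 24. Thus 2 of the 9 probes were tested for differential expression, among 15056 probes of the whole array, and the other 7 were at background on most or all arrays.

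Signals below are normalized log2 values, and a change was called where the adjusted p of limma (Benjamini-Hochberg over all 15056 probes tested) was under 0.05. Kctd12 fell after irradiation at 48 and 96 h. Its level was 1.52-fold lower at 48 h and 1.80-fold lower at 96 h, while at 24 h the difference was within the spread between arrays. Alox5ap passed the test at none of the 3 times.

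At 24 h the Kctd12 signal was 6.82, 7.04, 6.74 and 6.96 in irradiated organoids, against 7.28, 6.99, 7.16 and 6.82 in controls. The groups overlapped, and their means were 6.89 ± 0.14 in irradiated and 7.06 ± 0.20 in control organoids (SD, n = 4 each). The log2 difference was -0.17, with a 95% confidence interval of -0.40 to 0.06 and an adjusted p of 0.286 (limma). Thus 0 of the 2 tested member probes were called at 24 h, where 22.1% of all tested probes were called.

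At 48 h the Kctd12 signal was 6.41, 6.53, 6.49 and 6.49 in irradiated organoids, against 7.13, 7.13, 7.12 and 6.96 in controls. Every irradiated array lay below every control array, which held with the irradiated arrays lower for 10.1% of all tested probes. The means were 6.48 ± 0.05 in irradiated and 7.09 ± 0.09 in control organoids (SD, n = 4 each). The log2 difference was -0.61, with a 95% interval of -0.84 to -0.38 and an adjusted p of 0.000635 (limma). Kctd12 was the 1 member probe of 2 called at 48 h, when 5.04% of all tested probes were called lower and 2.56% had a more negative difference than Kctd12.

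At 96 h the Kctd12 signal was 6.72, 6.64, 6.43 and 6.59 in irradiated organoids, against 7.28, 7.35, 7.46 and 7.68 in controls. The groups were again separate, as they were, with the irradiated arrays lower, for 4.14% of all tested probes. The means were 6.60 ± 0.12 in irradiated and 7.44 ± 0.18 in control organoids (SD, n = 4 each). The log2 difference was -0.85, with a 95% interval of -1.08 to -0.62 and an adjusted p of 2.61e-05 (limma). Kctd12 was again the 1 member probe of 2 called, against 2.78% of all tested probes called lower, and 1.02% of probes had a more negative difference.

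**Figure D1:**
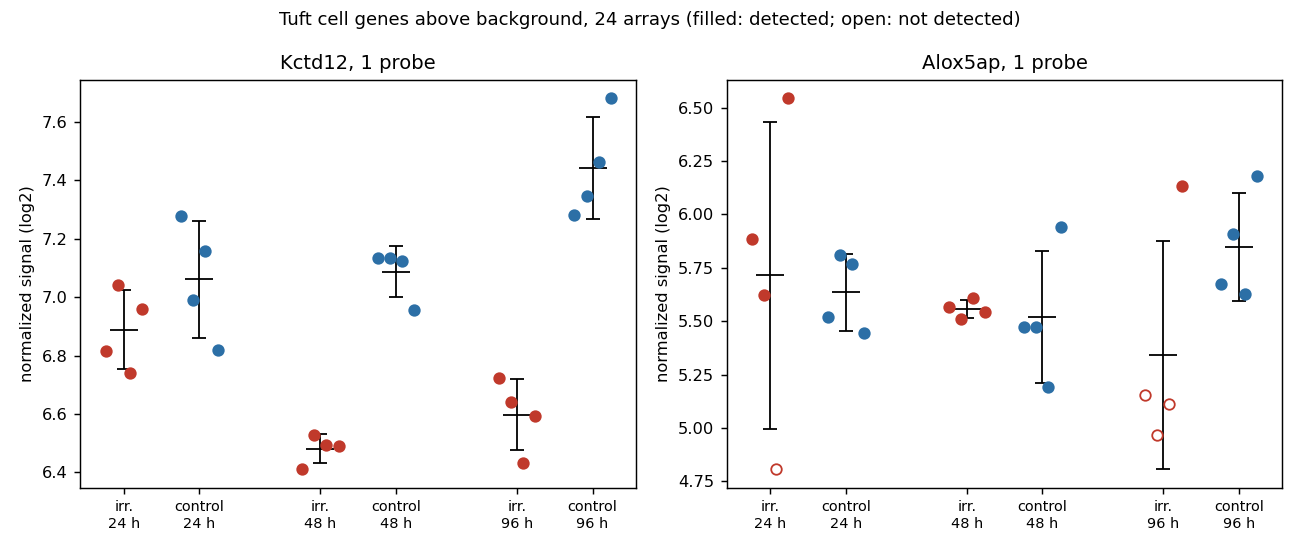
Normalized log2 signal of Kctd12 and Alox5ap on each of the 24 arrays, with irradiated organoids in red and controls in blue at 24, 48 and 96 h and the mean and SD of each group in black (n = 4). Filled points are arrays where the probe was detected. For Kctd12 the irradiated arrays lie between 6.41 and 6.53 at 48 h and between 6.43 and 6.72 at 96 h, below all controls of the same time, while the Alox5ap groups overlap at every time.

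Averaged over the 3 times, the Kctd12 difference was -0.54 ± 0.06 (SE) on the log2 scale, with an adjusted p of 1.01e-06 (limma). It was the 1 tested member probe called for this mean effect, for which 15.3% of all tested probes were called lower. The 48 and 96 h calls held in 39 of 39 other settings or left-out arrays, with differences of -0.36 to -0.77 at 48 h and -0.53 to -1.04 at 96 h. In 24 of the 39, 1 array was left out without a new normalization. Leaving out an array of another time changed the estimate of the spread but not the difference itself. The calls thus did not rest on 1 array or on the choice of normalization among those tried. On the bead signals as deposited, before background correction and normalization, the groups overlapped. At 48 h these were 136 to 204 in irradiated and 177 to 271 in control organoids, and at 96 h 148 to 235 in irradiated and 172 to 326 in control organoids. The values above are those after correction for the background of each array.

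The 24 h value depended on how arrays were scaled. With each array scaled to the same median in place of quantile normalization, Kctd12 differed by -0.70 at 24 h and was called (adjusted p = 0.00281, limma), but the median of all tested probes was then -0.44, so that Kctd12 lay -0.25 from it. Relative to the median of all probes under that scaling, Kctd12 lay at -0.58 at 48 h and -0.85 at 96 h, close to the differences under quantile normalization.

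The effect on Kctd12 was larger at 96 h than at 24 h. The difference of the effects was -0.67 ± 0.16 on the log2 scale (SE), with an adjusted p of 0.00812 (limma), and 5.53% of all tested probes were called lower in this contrast. It was called in 37 of 39 other settings or left-out arrays. It was not called with median scaling (-0.34, adjusted p = 0.447, limma) or without the 5 arrays with the fewest detected probes (-0.55, adjusted p = 0.124, limma). The effect at 48 h minus that at 24 h was -0.43 (adjusted p = 0.286, limma) and the effect at 96 h minus that at 48 h was -0.24 (adjusted p = 0.517, limma), neither of them called. For these 2 contrasts 0.777% and 2.70% of all tested probes were called.

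**Figure D2:**
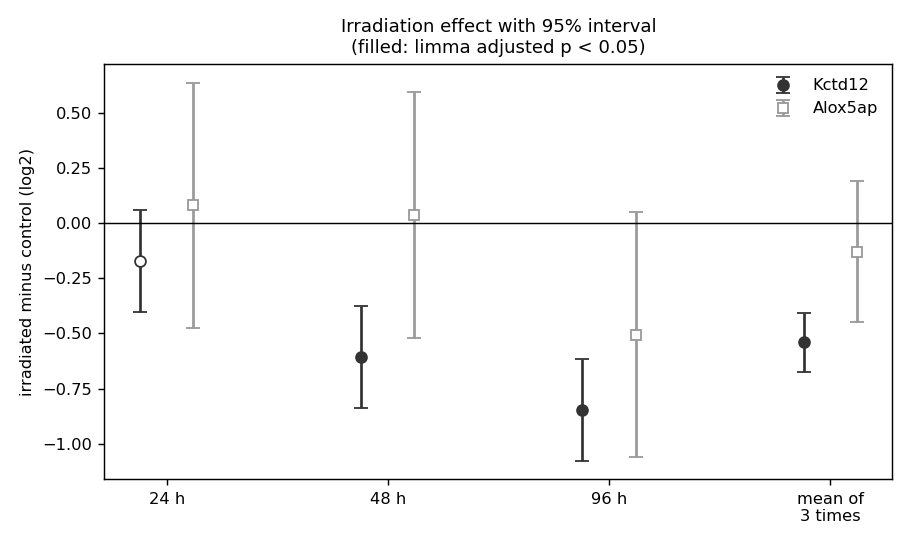
Log2 difference of irradiated minus control organoids for Kctd12 (dark) and Alox5ap (grey) at 24, 48 and 96 h and as the mean of the 3 times, with 95% confidence intervals from limma. The Kctd12 intervals lie below 0 at 48 h, at 96 h and for the mean, and each Alox5ap interval includes 0.

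In order of level, Kctd12 was highest in controls at 96 h, followed by controls at 48 h, controls at 24 h, irradiated organoids at 24 h, irradiated organoids at 96 h and irradiated organoids at 48 h. Neighbours in this order overlapped, except controls at 96 h and at 48 h, whose means lay 0.36 apart, and irradiated organoids at 24 h and at 96 h, whose means lay 0.29 apart. In controls the level at 96 h was 0.38 above that at 24 h (adjusted p = 0.0282, limma), in a contrast where 5.21% of all tested probes were called higher. This call was lost under 5 other settings and without replicate 2 or 4 of the controls at 24 h or replicate 3 or 4 of the controls at 96 h, with adjusted p-values up to 0.445 (limma). The difference between controls at 96 h and at 48 h was 0.36 (adjusted p = 0.0728, limma, with 3.87% of all tested probes called), and between controls at 48 h and at 24 h it was 0.03 (17.7% called). In irradiated organoids the level at 48 h differed by -0.41 from that at 24 h (adjusted p = 0.00851, limma), with 12.3% of all tested probes called lower. With median scaling it was 0.09 in the opposite direction (adjusted p = 0.718, limma). Irradiated organoids at 96 h differed by -0.29 from those at 24 h (adjusted p = 0.0504, limma, with 13.6% called lower) and by 0.12 from those at 48 h (9.83% called). Each time was hybridised on its own chip, so the chip moves with these differences between times.

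The RefSeq sequence of the 250 bases before the Kctd12 start is shown because Pou2f3, the factor known to specify tuft cells in the mouse, belongs to the POU family, whose members bind the octamer motif. The window lies at chr14:102982638-102982887 of GRCm38.p6, on the minus strand, and the octamer ATGCAAAT is in capitals.
Kctd12: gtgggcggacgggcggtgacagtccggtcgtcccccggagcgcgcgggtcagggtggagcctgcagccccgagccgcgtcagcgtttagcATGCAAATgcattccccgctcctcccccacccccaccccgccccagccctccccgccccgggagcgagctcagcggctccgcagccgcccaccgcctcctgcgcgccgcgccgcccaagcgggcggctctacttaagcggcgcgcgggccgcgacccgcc
The octamer lies 160 to 153 bases before the start. It was searched as ATGCAAAT and as its reverse complement ATTTGCAT in windows of 250 bases before to 50 bases after each gene start. Of 32851 such windows in RefSeq, 570 held it on either strand, or 1.74%. Of the 5 members with a window, 1 held it, and the windows of Trpm5, Avil, Ptgs1 and Gfi1b did not. A match of letters is a description of the sequence and not a binding site.

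Alox5ap, whose product presents arachidonic acid to 5-lipoxygenase, did not differ beyond the spread between arrays. At 24 h its signal was 5.89, 5.62, 4.81 and 6.54 in irradiated organoids, against 5.52, 5.81, 5.77 and 5.44 in controls. At 48 h it was 5.57, 5.51, 5.61 and 5.54 in irradiated organoids, against 5.47, 5.47, 5.19 and 5.94 in controls. The irradiated arrays spread widely on both sides of the controls at 24 h and lay within the control range at 48 h. At 96 h the signal was 5.15, 4.97, 5.11 and 6.13 in irradiated organoids, against 5.67, 5.91, 5.63 and 6.18 in controls. At that time 3 irradiated arrays lay below all controls and 1 lay among them.

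The log2 difference for Alox5ap was 0.08 at 24 h, with a 95% interval of -0.48 to 0.64 (adjusted p = 0.861, limma), and 0.04 at 48 h, with an interval of -0.52 to 0.59 (adjusted p = 0.955, limma). It was -0.50 at 96 h, with an interval of -1.06 to 0.05 (adjusted p = 0.360, limma). Without replicate 4 of the irradiated organoids at 96 h, that difference was -0.77 and still not called (adjusted p = 0.127, limma). A decrease of the size seen for Kctd12 at 96 h lies within the Alox5ap interval, so these arrays do not separate the 2 genes at that time. Alox5ap was detected on 3, 4 and 1 of 4 arrays in organoids irradiated 24, 48 and 96 h before, against 4 of 4 control arrays at each time. All neighbouring groups overlapped in the order of level, and none of the differences between times was called for Alox5ap.

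The other 4 genes gave 7 probes, none with a level that can be compared. The lowest signal of any detected probe lay between 4.97 and 6.26 over the 24 arrays, and the highest value of these 7 probes on any array was 5.48. Their group means lay between 4.59 and 5.11, and no group of any of the 7 probes had a mean high enough above this limit to give a fold. At a stricter detection p of 0.01, 0 of their values were detected, while Kctd12 remained detected on 23 arrays and Alox5ap on 11.

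The 7 probes were detected on 11 of 168 occasions, 1 of 84 in irradiated and 10 of 84 in control organoids. The controls at 48 h held 8 of these, out of 28 values, against 1 of 28 in irradiated organoids at 48 h. The controls at 96 h held the other 2, and no value was detected at 24 h in either group or in irradiated organoids at 96 h. Among all 10641 probes that did not pass the filter, 1.10% of values were detected in irradiated and 0.883% in control organoids at 24 h. These shares were 2.55% in irradiated and 3.10% in control organoids at 48 h, and 1.41% in irradiated and 1.74% in control organoids at 96 h. The 7 probes share arrays and their counts are not independent, so no test was made.

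Trpm5, the channel of the taste-type pathway, was detected by its first probe on 1 control array at 48 h and by its second on 2 control arrays at 48 h and 1 at 96 h. At 48 h the second probe read 4.75, 4.69, 4.83 and 4.55 in irradiated organoids, against 4.83, 4.91, 5.26 and 5.21 in controls, where the last pair was detected. Avil was detected on 1 irradiated and 2 control arrays at 48 h. Its signal there was 5.04, 4.57, 4.66 and 4.61 in irradiated organoids, against 4.76, 5.26, 4.99 and 5.12 in controls. The detected arrays of both genes stood only slightly above arrays without detection, and the groups shared part of their range or lay next to each other. Ptgs1 was detected by its probes on 1, 1 and 1 control arrays at 48 h, and by the third probe on 1 control array at 96 h. Gfi1b was detected on no array.

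With no filter on dim probes, all 25697 probes entered the fit, and 3 of these 7 probes were called lower for the mean over the times, where 8.21% of all probes were called lower. They were the Avil probe (adjusted p = 0.0191, limma) and both Trpm5 probes (adjusted p = 0.0464 and 0.0178, limma). Their signals were below the detection limit on most arrays, so no fold is given, and none was called at a single time. The 3 Ptgs1 probes and the Gfi1b probe were not called in that fit.

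**Figure D3:**
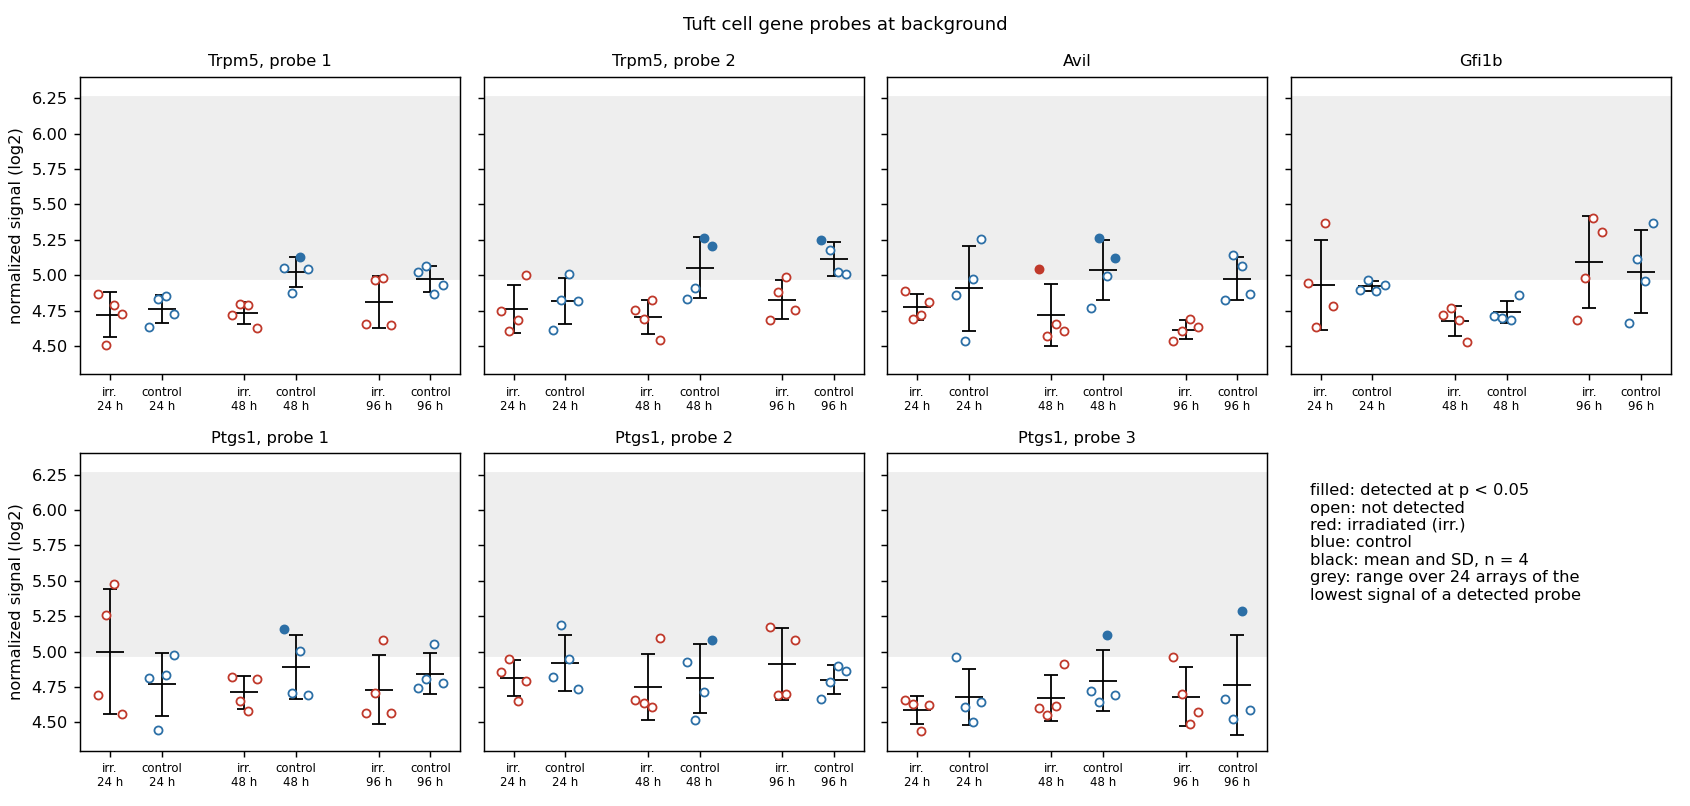
Normalized log2 signal of the 7 probes of Trpm5, Avil, Gfi1b and Ptgs1 on each array, with irradiated organoids in red, controls in blue, and the mean and SD of each group in black (n = 4). Filled points are the 11 detected values, of which 8 are controls at 48 h, and the grey band spans the lowest signal of a detected probe over the 24 arrays, 4.97 to 6.26.

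A list of 59 other tuft cell genes gave the wider pathway. Of these, 56 had a probe, 42 were detected on at least 1 array and 35 had a tested probe, and the brightest probe stood for a gene. At 24 h, 4 of the 35 were called higher and 3 lower, against 9.58% of all tested probes higher and 12.6% lower. At 48 h, 3 were called higher and 3 lower, against 6.26% and 5.04%. At 96 h, 0 were called higher and 3 lower, against 1.43% and 2.78%. The median log2 difference of the list was 0.04, -0.05 and -0.10 at 24, 48 and 96 h, beside -0.07, -0.03 and 0.00 for all tested probes. With median scaling the calls at 24 h were 2 higher and 9 lower, where 45% of all tested probes were called lower. Without the 5 arrays with the fewest detected probes they were 5 higher and 1 lower.

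The filter on detection was not neutral for dim genes of this list. Of the 35, 24 were detected on at least 4 arrays of each condition. In 9 genes, among them Rgs13, Fyb and Il17rb, the controls alone reached 4 arrays, and in Ptgs2 the irradiated organoids alone did. A gene that passed through 1 condition had to differ in detection, so its call is a description of these arrays. The counts above include such calls, for which the shares of all tested probes are no measure. They were Rgs13 and Fyb, lower at 48 h, Rgs13 and Il17rb, lower at 96 h, and Ptgs2, higher at 24 and 48 h.

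In the taste-type signalling group, 6 of 13 genes were tested. Gng13, a G protein gamma subunit, read 5.73, 6.30, 4.83 and 5.37 in irradiated organoids at 24 h, against 6.65, 6.99, 6.47 and 6.36 in controls. The last pair of irradiated values, on the irradiated arrays with the fewest detected probes, was not detected. Gng13 was called lower at a fitted difference of -1.06 (adjusted p = 0.00384, limma), and without the 5 arrays with the fewest detected probes the difference was -0.60 and not called (adjusted p = 0.153, limma). Itpr3, the calcium release channel that acts before Trpm5, was called lower at -0.85 at 24 h (adjusted p = 0.00217, limma), and without those arrays it differed by -0.52 and was not called (adjusted p = 0.0710, limma). Rgs13, a regulator of G protein signalling, was detected on 0 irradiated and 4 control arrays at 48 h. It read 4.53, 4.59, 4.64 and 4.64 in irradiated organoids at 48 h, against 5.33, 5.35, 5.29 and 5.09 in controls, and was at least 1.09-fold lower (adjusted p = 0.00422, limma). At 96 h Rgs13 was detected on 0 irradiated and 2 control arrays and was called lower with no fold to give (adjusted p = 0.0269, limma), a call lost without those 5 arrays (adjusted p = 0.264, limma). No irradiated array detected Rgs13 at any time, so it passed the filter through controls alone. These bounds set the control mean against the lowest signal of a detected probe on the irradiated arrays. Gnb3, Plcb2 and Pik3cg of the same pathway were detected on no array.

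In eicosanoid synthesis, the group of Ptgs1 and Alox5ap, 4 of 6 other genes were tested and they changed in both directions. Ptgs2, the inducible cyclooxygenase, read 6.74, 6.52, 6.81 and 6.59 in irradiated organoids at 48 h, against 4.86, 5.26, 5.24 and 5.33 in controls. The groups stood well apart, with a log2 difference of 1.49 (adjusted p = 5.27e-07, limma). A second Ptgs2 probe was detected on 0 arrays, with means of 4.65 in irradiated and 4.56 in control organoids at 48 h. At 24 h the brighter Ptgs2 probe was detected on 1 irradiated and 0 control arrays. It was called higher there with no fold to give (adjusted p = 0.0221, limma), since most irradiated values were themselves not detected. Pla2g4a, the phospholipase that frees arachidonic acid, fell by 0.43 at 24 h (adjusted p = 0.00571, limma) and by 0.40 at 48 h (adjusted p = 0.0167, limma). Alox5, the partner of Alox5ap, was detected on no array.

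Among cytoskeleton genes, 5 of 7 were tested. Espn, which encodes the actin-bundling protein espin, read 5.94, 5.43, 5.13 and 5.03 in irradiated organoids at 96 h, against 6.91, 6.84, 7.08 and 6.93 in controls. The groups were far apart, with 2 of the 4 irradiated arrays detected, and Espn fell by 1.56 (adjusted p = 3.74e-06, limma). Another Espn probe fell by 1.36 (adjusted p = 0.000939, limma), while the third differed by 0.26 and was not called. Krt23, a keratin, rose by 0.76 at 24 h (adjusted p = 1.53e-06, limma) and by 0.54 at 48 h (adjusted p = 0.00021, limma). Krt18, another keratin, was called only for the mean over the times, at 0.34 (adjusted p = 0.00276, limma). Dclk1, a kinase widely used to mark tuft cells, was detected on no array.

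Of the genes shared with blood cell signalling, 11 of 15 were tested. Fyb, an adapter protein, was detected on 0 irradiated and 3 control arrays at 48 h and was called lower with no fold to give (adjusted p = 0.00887, limma). It too was detected on no irradiated array at any time and passed the filter through controls alone. Ptpn18, a tyrosine phosphatase, rose by 0.63 at 24 h (adjusted p = 0.00486, limma). Limd2 was called lower for the mean over the times, at -0.41 (adjusted p = 0.0466, limma).

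Of the cytokine and receptor genes, 3 of 5 were tested. Il17rb, a subunit of the interleukin 25 receptor, was detected on 0 irradiated and 4 control arrays at 96 h. It read 4.57, 4.75, 4.94 and 5.42 in irradiated organoids at 96 h, against 5.69, 5.51, 5.59 and 6.08 in controls. It was at least 1.15-fold lower at 96 h (adjusted p = 0.0332, limma), and was not called without the 5 arrays with the fewest detected probes (adjusted p = 0.0617, limma). Chat, the enzyme that makes acetylcholine, belongs to the surface and other genes, of which 5 of 9 were tested. Chat read 7.92, 7.70, 8.07 and 8.02 in irradiated organoids at 24 h, against 6.55, 6.51, 6.41 and 6.23 in controls. The log2 difference at 24 h was 1.50 (adjusted p = 2.94e-06, limma), and at 48 h Chat was higher by 0.79 (adjusted p = 0.00592, limma). A second Chat probe was detected on 1 array and was not tested, with means of 4.92 in irradiated and 4.70 in control organoids at 24 h. Pygl, of the same genes, was not called by its brightest probe. Its other probe was called lower at 24 h (adjusted p = 0.0259, limma) and for the mean over the times (adjusted p = 0.000777, limma). That probe was detected on 0 irradiated arrays at each time and on 3, 2 and 3 control arrays, so it passed the filter through controls alone. Of the 4 transcription factors listed, 1 was tested and not called.

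The effect at 96 h minus that at 24 h was called lower for 4 of the 35 genes and higher for 0, against 5.53% and 4.36% of all tested probes. These were Espn at -2.00, Chat at -1.17, Il17rb at -1.08 and Krt23 at -0.62. For the mean over the times, 5 of the 35 were called higher and 7 lower, against 10.8% and 15.3% of all tested probes. The 7 lower genes were Gng13, Itpr3, Rgs13, Pla2g4a, Espn, Fyb and Limd2, and the 5 higher genes were Ptgs2, Krt18, Krt23, Ptpn18 and Chat. Of the genes named for these contrasts, Rgs13, Fyb and Il17rb passed the filter through controls alone and Ptgs2 through irradiated organoids alone. Their calls are descriptions of these arrays. The Espn mean joined opposite signs, 0.45 at 24 h and 0.18 at 48 h, neither called, and -1.56 at 96 h. The other Espn probe that fell at 96 h was not called for the mean (adjusted p = 0.146, limma). Without the 5 arrays with the fewest detected probes, Espn was called higher at 24 h (0.72, adjusted p = 0.0111, limma). The calls at 96 h numbered 1 in place of 3 on leaving out replicate 1 or 3 of the controls or replicate 3 of the irradiated organoids at 96 h.

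**Figure D4:**
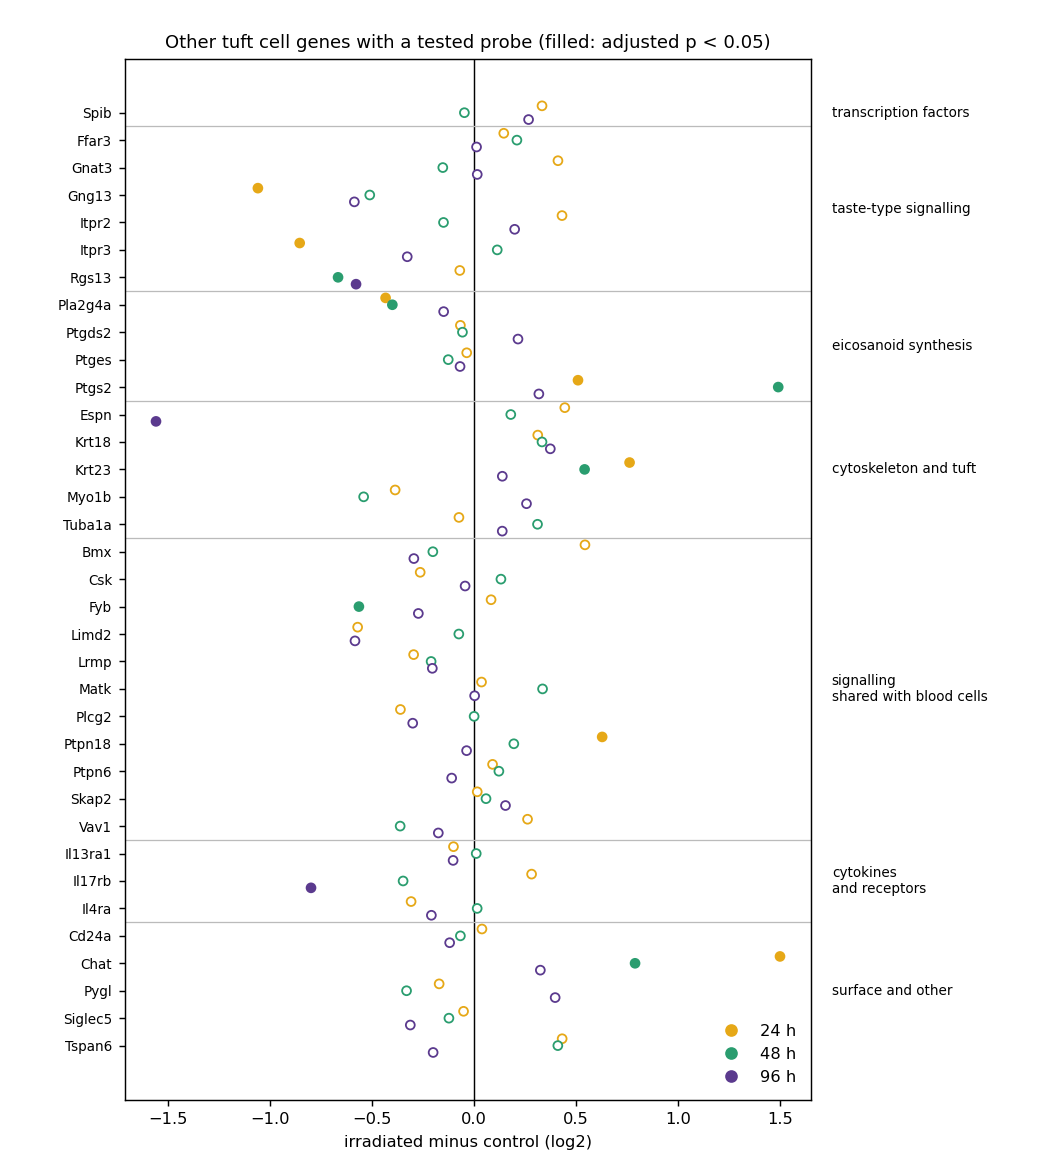
Log2 difference of irradiated minus control organoids for each of the 35 other tuft cell genes with a tested probe, by group of genes, with 1 point each for 24 h (yellow), 48 h (green) and 96 h (purple), filled where limma's adjusted p was under 0.05. Ptgs2 stands highest at 48 h at 1.49, Chat at 24 h at 1.50, and Espn stands lowest at 96 h at -1.56; points of genes not detected in a group are fitted values and not folds.

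Markers of other cell types were examined beside these values. Of 13 leukocyte markers with a probe, 4 were tested, and Ptprc, the defining leukocyte marker, was detected on no array. The summed linear signal of the 4 was 133 to 171 in irradiated and 176 to 217 in control organoids at 48 h, and 127 to 157 in irradiated and 159 to 195 in control organoids at 96 h. It was lower in irradiated organoids at the times at which Kctd12 was called. At 24 h it was 107 to 159 in irradiated and 139 to 158 in control organoids. Among the 4, Laptm5, a lysosomal membrane protein of blood cells, fell by 0.94 at 48 h (adjusted p = 0.0009, limma) and by 0.92 at 96 h (adjusted p = 0.0023, limma). Coro1a, an actin regulator of blood cells, fell by 0.79 at 24 h (adjusted p = 0.012, limma). The part of these cells in the Kctd12 result was not tested.

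Of the enteroendocrine markers 8 of 8 were tested, with 5, 5 and 0 called higher and 0, 0 and 1 called lower at 24, 48 and 96 h. Of the mesenchymal markers 2 of 6 were tested, with 1, 2 and 0 called higher, and Col1a1, Col1a2, Col3a1 and Pdgfra were detected on no array. Of the mast cell markers 2 of 6 with a probe were tested, and Mcpt2 was called higher at 24 and 48 h. It was detected on 2, 4 and 0 irradiated and 1, 0 and 0 control arrays at 24, 48 and 96 h. Mcpt2 thus passed the filter through irradiated organoids alone, and its call is a description of these arrays. Fcer1a, the other, differed by -0.03, 0.05 and 0.27 and was not called, and Mcpt1 and Tpsab1 were detected on 0 arrays. Of the platelet and megakaryocyte markers 3 of 4 with a probe were tested, with 2, 2 and 0 called higher, and Ppbp was detected on no array. Itga2b, an integrin subunit of platelets, differed by 1.80 at 24 h (adjusted p = 2.4e-06, limma) and 0.72 at 48 h (adjusted p = 0.0346, limma). Gp9, a platelet glycoprotein, differed by 0.58 at 24 h (adjusted p = 0.0109, limma) and 0.53 at 48 h (adjusted p = 0.0313, limma). Gp1bb, the third, went the other way, at -0.48, -0.16 and -0.12 at 24, 48 and 96 h, and was not called. Most of the summed signal came from Gp9, whose mean in irradiated organoids at 24 h was 9.90. The means of Itga2b and Gp1bb there were 7.02 and 4.98. The summed linear signal of the 3 was 1028 to 1225 in irradiated and 635 to 841 in control organoids at 24 h, and 723 to 835 in irradiated and 470 to 728 in control organoids at 48 h. At 96 h it was 596 to 888 in irradiated and 617 to 789 in control organoids. Of the erythroid markers 1 of 6 and of the sensory neuron markers 2 of 3 with a probe were tested, with 0 called at any of the 3 times. Their part in the results was also not tested.

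The genes whose signal followed Kctd12 most closely over the 24 arrays, by Pearson correlation, were Vegfa (0.87), Reep1 (0.87) and Insig1 (0.86). Over deviations from the group means, which leave out the differences between groups, the correlations were 0.43, 0.38 and -0.12 for the 3 genes in that order, so the likeness of Insig1 lay between groups and not within them. Vegfa, a growth factor of blood vessels, differed by -0.76, -0.73 and -1.52 at 24, 48 and 96 h. Reep1, an endoplasmic reticulum protein, differed by -0.42, -0.65 and -0.88, and Insig1, a regulator of sterol synthesis, by -0.15, -0.34 and -0.53. Of these differences, that of Insig1 at 24 h was not called and the other 8 were called (adjusted p at most 0.0149, limma). For Alox5ap the closest were Atp6ap2 (0.73), Azi2 (0.73) and Aspscr1 (0.70), with 0.77, 0.83 and 0.73 over deviations from the group means, and none of these was called at any time. The arrays share chips and depth of detection, and the correlations are descriptions over arrays that include both conditions.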

How the data were processed

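RNA of 24 organoid samples was measured on Illumina BeadChips. The authors deposited mean bead signals, which are linear intensity values, together with detection p-values, per the file headers. They also deposited a table of processed values. Set against the bead signals, these were on a linear scale, ranked the probes of each array alike (rank correlation 1.0), were not centred, and had column medians of 110.42 to 111.29. What was done to make them is not stated in the labels.

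Background was removed from the bead signals by normexp, with parameters inferred from the detection p-values (offset 16), and the arrays were quantile normalized and put on the log2 scale (neqc, limma 3.58.1, R 4.3.3). Probes detected at p under 0.05 on at least 4 arrays were tested, 15056 of 25697. Limma estimated 1 mean for each group from all 24 arrays jointly (18 residual and 4.21 prior degrees of freedom), two-sided, with Benjamini-Hochberg adjustment per contrast over all probes. The number of arrays limits the precision, and bead arrays give no counts. A fold against a group with no detected array is a bound, the brighter group's mean against the mean, per array, of the higher of the probe's signal and the lowest signal of a detected probe. It is given only where all 4 arrays of the brighter group detected the probe. The fit was tested on simulated data.

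Promoter windows are RefSeq's, of GRCm38.p6, and 6 of 6 member symbols equal current symbols there. The members, lists and tests were chosen with earlier results of these data known. The named genes are all members and, for each tested member, the 3 genes with the highest correlation. Each listed tuft cell gene with a probe called in an irradiated-minus-control contrast or the mean effect is named too. Only the brightest probe of a gene entered the counts. Listed genes detected on no array and cell type markers are named beside them, chosen after their values were seen. An item of the lists is not reported here. Alternatives were other background corrections, normalizations, filters, variance models, subsets of arrays and the authors' processed values.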

Additional observations from a re-analysis of the deposited data

Results flagged for a closer look

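The Kctd12 effect differed between times, with a log2 difference of -0.67 between the effects at 96 h and at 24 h by limma's interaction contrast, as given above.

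Within groups of 4, single arrays stood apart from the other 3 by Dixon's criterion. Kctd12 in controls at 48 h read 6.96 on replicate 4, against 7.12 to 7.13 on the others. Alox5ap in irradiated organoids at 96 h read 6.13 on replicate 4, against 4.97 to 5.15. The remaining 4 were values at background. The second Ptgs1 probe read 5.10 on replicate 4 of irradiated organoids at 48 h, against 4.61 to 4.66. The third Ptgs1 probe read 4.44 on replicate 3 of irradiated organoids at 24 h, against 4.62 to 4.66, and 5.11 on replicate 3 of controls at 48 h, against 4.65 to 4.72. Gfi1b read 4.86 on replicate 4 of controls at 48 h, against 4.69 to 4.71. These were 6 of 54 combinations of probe and group, where chance gives about 2.7.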

How the results depend on the processing

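The calls for Kctd12 at 48 h, at 96 h and for the mean effect held in every alternative and with every array left out in turn, with adjusted p-values up to 0.00998, 0.0187 and 0.000181 (limma). Without background correction and with the authors' processed values they also held. Median scaling gave 1 member probe called at 24 h (Kctd12, -0.70) and 11 other tuft cell genes at 24 h. It gave 0 member calls for the effect at 96 h minus 24 h (Kctd12 -0.34), for controls at 96 h against 24 h, and for irradiated organoids at 48 h against 24 h (Kctd12 0.0883, reversed). For the mean effect, 4 member probes were called with no filter and 3 with detection on at least 1 array. For controls at 96 h against 24 h, 0 were called within the arrays of those times, with a trended robust variance, with array weights and without the 5 arrays with fewest detected probes. For irradiated organoids at 96 h against 24 h, 1 was called with cyclic loess, detection on at least 8 arrays, 1 probe a gene, those 5 arrays left out (Alox5ap) and the count of detected probes as a covariate. Without the 5 arrays, which are replicates 3 and 4 of irradiated organoids at 24 h and at 96 h and replicate 4 of controls at 96 h, 1 other tuft cell gene was called at 96 h, and 0 member probes for the effect at 96 h minus 24 h (Kctd12 -0.55). This omission and the covariate were chosen after seeing the data. At a detection p of 0.01, 34 in place of 55 member values were detected, since fewer pass a lower threshold. Apart from that, the cause of these changes was not tested.

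Leaving out each array in turn gave 1 to 3 other tuft cell genes at 96 h, 0 to 1 member calls for controls at 96 h against 48 h and against 24 h, and 0 to 2 for irradiated organoids at 96 h against 24 h. The values did not settle whether replicate numbers pair the samples. Of 12 same-numbered pairs, with correlations of -0.42 to 0.46, 7 exceeded 0.1. In 6 of the 12 the irradiated array correlated best with the control of its own number, among the 4 controls of its time. With the replicate block within each time, the calls over all probes numbered 3256, 1513 and 462 at 24, 48 and 96 h, against 3333, 1702 and 633 without it, and no member call changed. Contrasts between times within a condition cannot be given with this block. Signal over background limits Trpm5, Avil, Ptgs1 and Gfi1b, whose levels cannot be compared.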
